A study of Mus musculus with 6 samples.

Results

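The regions described here are the gaps between close neighbouring genes of the mouse. A pair was 2 adjacent protein-coding genes on chromosomes 1 to 19 or X that do not overlap and whose facing ends lie 1 kb or less apart. Its region was the gap plus 1 kb of each gene. By this rule, 2009 pairs formed from 3635 of the 21631 protein-coding genes of the annotation used (GRCm38.p6, the assembly of mm10), and 383 genes belonged to 2 pairs. The strand of both genes was known for 568 head-to-head pairs (the genes start at the gap and run away from each other), 444 tandem pairs (both genes run the same way) and 427 tail-to-tail pairs (both genes end at the gap). For 570 pairs the strand of at least 1 gene was unknown. The pairs made up 2009 of 41155 gene-end regions, the other 39146 being windows of 1 kb either side of a gene end outside the pairs.

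The study mapped H3K4me3 by ChIP-seq in Lgr5+ progenitor cells of the cochlea, with 2 libraries of cells exposed to neomycin for 12 h and 2 of untreated cells. Neomycin is an aminoglycoside antibiotic that damages hair cells. All cells came from C57BL/6 mice carrying the Lgr5-EGFP-creERT2 allele, aged postnatal day 0 to 3 and of either sex, whose cochleae were cultured with growth factors before dissociation and sorting on GFP. The labels do not say whether replicates came from separate cultures, so p-values measure the spread between these libraries, which may be technical. The reporter marks cells by GFP from the Lgr5 locus, and GFP can outlast expression of that locus.

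H3K4me3 is laid down on the nucleosomes that flank active and poised promoters, while the start site itself tends to be free of nucleosomes. In mammals many genes lie head to head across a short gap that acts as a bidirectional promoter, often rich in CpG and serving housekeeping, DNA repair and mitochondrial genes. Such a gap can thus be marked over the first part of either gene. A gap between tail-to-tail genes holds 2 transcript ends and no annotated start of either gene.

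The promoters below, from RefSeq (GRCm38.p6), show how short such gaps are. They belong to the first pairs by rank in each of 3 kinds of head-to-head pair. Each run covers 250 bases before to 50 bases after the listed start of the named gene, 5′ to 3′ on the strand of that gene, with the bases in the gap in capitals. Bloc1s3/Trappc6a and 1700029J07Rik/Ufsp2 were marked with neomycin alone, G3bp2/Uso1 and Mthfd2/Mob1a in untreated cells alone, and Polr1c/Yipf3 and Psma7/Ss18l1 had summits on both sides of the gap in all 4 libraries.
Bloc1s3 (chr7:19508321-19508620, minus strand): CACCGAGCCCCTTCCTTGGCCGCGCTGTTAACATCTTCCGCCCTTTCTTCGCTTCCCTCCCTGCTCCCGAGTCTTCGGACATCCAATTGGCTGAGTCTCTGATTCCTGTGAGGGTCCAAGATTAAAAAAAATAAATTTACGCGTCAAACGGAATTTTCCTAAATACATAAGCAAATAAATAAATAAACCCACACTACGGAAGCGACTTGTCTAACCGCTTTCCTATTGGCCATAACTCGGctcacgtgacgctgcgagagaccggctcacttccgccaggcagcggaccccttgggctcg
Ufsp2 (chr8:45975278-45975577, plus strand): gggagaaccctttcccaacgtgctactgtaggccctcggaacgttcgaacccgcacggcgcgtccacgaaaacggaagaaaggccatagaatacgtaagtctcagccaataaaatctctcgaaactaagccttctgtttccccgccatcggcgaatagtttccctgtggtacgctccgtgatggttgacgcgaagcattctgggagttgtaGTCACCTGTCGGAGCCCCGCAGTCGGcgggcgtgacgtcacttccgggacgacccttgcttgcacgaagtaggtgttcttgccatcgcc
G3bp2 (chr5:92137676-92137975, minus strand): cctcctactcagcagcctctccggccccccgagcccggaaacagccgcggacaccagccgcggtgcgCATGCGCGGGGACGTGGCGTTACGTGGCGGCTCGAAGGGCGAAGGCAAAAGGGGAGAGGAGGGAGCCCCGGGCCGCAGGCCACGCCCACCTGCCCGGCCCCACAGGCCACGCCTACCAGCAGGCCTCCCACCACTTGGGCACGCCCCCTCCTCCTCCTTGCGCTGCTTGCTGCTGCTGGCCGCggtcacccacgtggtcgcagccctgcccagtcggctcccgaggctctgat
Mob1a (chr6:83325789-83326088, plus strand): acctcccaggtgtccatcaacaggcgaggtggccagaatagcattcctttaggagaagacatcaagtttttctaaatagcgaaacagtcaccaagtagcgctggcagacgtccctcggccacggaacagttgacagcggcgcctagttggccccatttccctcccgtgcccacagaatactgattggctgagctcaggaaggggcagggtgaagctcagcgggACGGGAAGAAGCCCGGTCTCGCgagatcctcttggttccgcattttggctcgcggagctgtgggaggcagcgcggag
Polr1c (chr17:46247996-46248295, minus strand): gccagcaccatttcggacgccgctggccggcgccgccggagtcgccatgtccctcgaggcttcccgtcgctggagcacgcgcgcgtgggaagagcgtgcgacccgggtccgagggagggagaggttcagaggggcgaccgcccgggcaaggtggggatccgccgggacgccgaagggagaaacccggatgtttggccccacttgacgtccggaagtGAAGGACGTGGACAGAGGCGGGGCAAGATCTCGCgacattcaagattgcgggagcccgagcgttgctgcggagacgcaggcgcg
Psma7 (chr2:180042415-180042714, minus strand): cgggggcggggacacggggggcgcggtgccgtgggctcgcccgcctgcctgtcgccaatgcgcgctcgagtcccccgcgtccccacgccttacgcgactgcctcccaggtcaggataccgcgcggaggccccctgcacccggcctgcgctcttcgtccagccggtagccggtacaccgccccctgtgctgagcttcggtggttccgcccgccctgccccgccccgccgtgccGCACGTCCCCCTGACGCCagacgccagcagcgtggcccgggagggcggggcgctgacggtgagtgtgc

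In the Bloc1s3 run 240 of the 284 gap bases are in capitals. In the other 5 runs the whole gap is, 26 bases long for Ufsp2, 183 for G3bp2, 22 for Mob1a, 34 for Polr1c and 18 for Psma7. In the runs of Ufsp2, Mob1a, Polr1c and Psma7 most of the window upstream of the start therefore lies inside the partner gene. In the G3bp2 run most of that window is the gap itself. The runs hold 21, 29, 29, 19, 40 and 41 CpG dinucleotides in the order printed, against a median of 14 over the 17274 promoters of the reference.

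A set of 6 short motifs, none of which contains another, was searched on both strands of the 300 bases of each promoter. They were the TATA box (TATAAA), the CCAAT box (CCAAT), the GC box (GGGCGG), the core bound by ETS factors such as GABPA (CTTCCG), and the NRF1 (GCATGCG) and YY1 (ATGGCGG) motifs. The ETS core was present in 44.0% of the 1136 head-to-head promoters and in 21.8% of all 17274, and the GC box in 66.2% and 46.9%. The TATA box was the reverse, with 5.90% of head-to-head promoters and 13.4% of all. The CCAAT box was present in 45.9% and 39.6%, NRF1 in 7.57% and 4.54%, and YY1 in 13.0% and 5.49%. Promoters of tandem pairs (at the gap) and of tail-to-tail pairs (at the far gene ends) lay in between. Theirs held the ETS core in 31.3 and 30.7%, the GC box in 56.5 and 62.5% and the TATA box in 9.91 and 7.96%. A departure from all promoters in these 3 motifs was thus not particular to head-to-head pairs. Of the printed runs, those of Bloc1s3, Ufsp2 and Polr1c hold the ETS core, that of Ufsp2 also the YY1 motif and that of G3bp2 the NRF1 motif. None of the 6 runs has a TATA box by these letters. These counts describe letters in a window and not bound sites. Both promoters of each head-to-head pair were counted. Where the gap is short their windows share bases, so the same motif can be counted for both genes.

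The listed starts lay within 50 bp of both facing ends in 339 head-to-head pairs (59.7%) and within 1000 bp in 494 (87.0%). Mthfd2, a mitochondrial folate enzyme, is an exception among the printed pairs, since its listed start lies 8407 bp inside the gene span. For pairs of this kind the gap need not be the main start of both genes. The median head-to-head gap was 100 bp (quartiles 46.75 and 224.25), against 448 bp in tandem, 374 bp in tail-to-tail and 300.5 bp in unknown-strand pairs. At the limit of the rule, 46 pairs had gaps of 951 to 1000 bp and 36 pairs just outside it had gaps of 1001 to 1050 bp. With neomycin 11 and 16 of the 46 inside had a peak in the 2 replicates, and without it 12 and 9. Of the 36 outside, 10 and 12 had one with neomycin and 14 and 8 without.

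Peaks were called by the authors in each library separately, and a region was marked when at least 1 bp of it lay in a peak. The lists held 14203, 11545, 15938 and 10520 peaks in the order neomycin replicate 1, neomycin replicate 2, untreated replicate 1 and untreated replicate 2, which is the order of all sets of 4 values below. They contain no read totals, so the depth of each library is unknown. The lists differ in how long a peak is, with a shortest peak of 48, 110, 187 and 234 bp and a median peak of 70, 142, 310.5 and 340 bp, so raw lengths and presence cannot be compared between libraries apart from these differences. As deposited, the untreated lists carry H3K4me2 in their names, but their labels name H3K4me3 and the antibody used for the neomycin libraries. The grouping follows the labels, and whether the mark is the same in both groups is uncertain. Markers of supporting and progenitor cells had a peak within 1 kb of a gene end for 10, 10, 10 and 9 of 10 genes, Lgr5 and Sox2 in each library. Hair cell markers had one for 2, 1, 4 and 1 of 7 genes. Atoh1 had one in both untreated libraries and no neomycin library, and Myo7a, Otof and Slc17a8 in no library. Myo6 had one in all but untreated replicate 2, Pou4f3 in replicate 1 of each group and Gfi1 in untreated replicate 1 alone. Of 24 marker genes of other cochlear, neural, vascular and immune cells, 2, 4, 9 and 7 had one, and 13 had one in no library. Sox10 had one in each library. Coch, Prrx2 and Twist1 had one in both untreated libraries and no neomycin library, and Kcnj10 in neomycin replicate 2 alone. The part of these other cells in the differences between groups below was not tested.

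Head-to-head pairs were marked more often than the other orientations in each library. Of the 568, 390, 375, 451 and 343 had a peak, which is 68.7% (64.7 to 72.3, 95% Wilson interval), 66.0% (62.0 to 69.8), 79.4% (75.9 to 82.5) and 60.4% (56.3 to 64.3). These intervals, like all intervals here, cover counting error only. Tandem pairs, with 1 start at the gap, were marked at 35.8, 34.5, 42.6 and 28.6%, near the middle between head-to-head and tail-to-tail pairs. Tail-to-tail pairs were marked at 2.58, 3.28, 4.92 and 2.81%. Pairs of unknown strand stood at 32.5, 30.0, 38.2 and 28.8%, and gene ends outside the pairs, where starts and ends are mixed, at 15.2, 14.8, 21.6 and 16.5%.

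**Figure D1:**
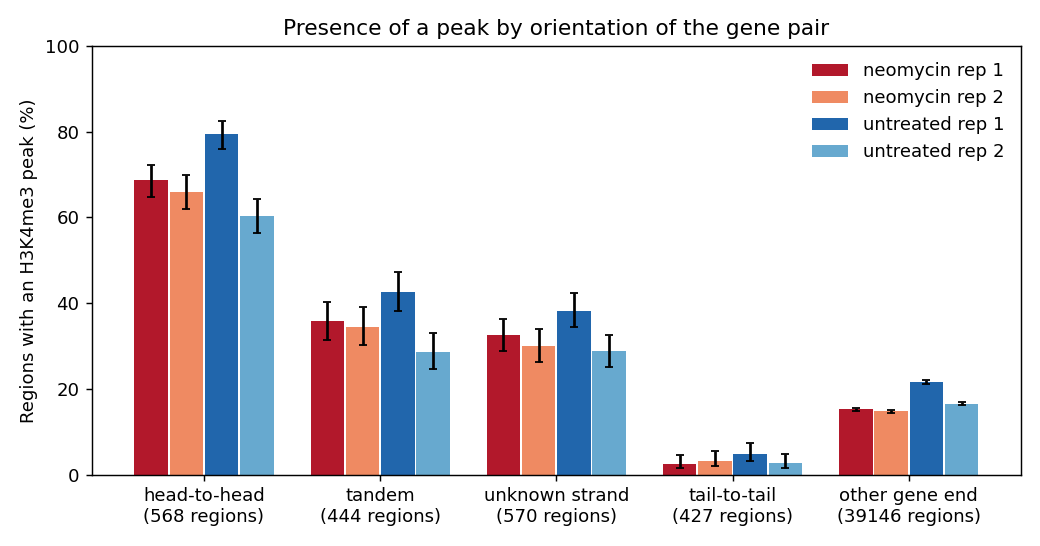
Share of regions with at least 1 peak (y axis, percent) for each orientation of the gene pair and for gene ends outside the pairs (x axis), 1 bar per library, with bars on top for the 95% Wilson interval. The 4 head-to-head bars lie between 60.4 and 79.4%, above each bar of the other classes.

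Within each library the head-to-head share exceeded that of tandem and tail-to-tail pairs combined by 49.1, 46.8, 55.3 and 44.4 percentage points, a mean of 48.9 ± 4.66 (SD, n = 4 libraries). An exact two-sided sign-flip permutation test over the 4 libraries gave p = 0.125, the smallest that 4 libraries allow. Against tandem pairs alone the mean difference was 33.3 ± 2.45 points. The order of the 3 orientations was the same in all 4 libraries, and no Wilson interval of 1 orientation reached that of the next in the same library.

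The difference in this share between neomycin and untreated cells was smaller than the spread between replicates. The means were 67.3 ± 1.87% (SD, n = 2) with neomycin and 69.9 ± 13.4% (SD, n = 2) without, a difference of 2.55 points, with an exact two-sided permutation p = 1 where 2 against 2 libraries allow no p under 0.333. The untreated libraries were the highest and the lowest of the 4. Without untreated replicate 1 the difference was -6.95 points, so its sign rests on that library.

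Most head-to-head pairs were marked in several libraries. Of the 568, 515 (90.7%) had a peak in at least 1 library, 205 (36.1%) in all 4, and 53 in none. In all, 49 were marked in 1 library, 93 in 2 and 168 in 3. Among the last, the missing library was untreated replicate 2 for 65, neomycin replicate 2 for 55, neomycin replicate 1 for 43 and untreated replicate 1 for 5. That is the order of the list sizes, the longest list being missing least often. Of tandem pairs, 250 were marked in at least 1 library and 53 in all 4, and of tail-to-tail pairs 30 and 2. The X chromosome had 15 head-to-head pairs, of which 5 were marked in any library and 0 in all 4. No head-to-head pair lay on chromosome 18, for whose genes no strand was available.

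Marked and unmarked head-to-head pairs differed in their promoter letters. Both promoters of each pair were again counted, with shared bases where the gap is short, so they are not independent. The 410 promoters of pairs marked in all 4 libraries had a median of 27 CpG and 64.7% GC, with the ETS core in 53.2%, the GC box in 74.9% and the TATA box in 4.88%. The 106 promoters of pairs marked in no library had a median of 15.5 CpG and 56.7% GC, with the ETS core in 14.2%, the GC box in 45.3% and the TATA box in 17.9%. The CCAAT box was more frequent in the unmarked set, with 61.3% against 39.0%. Tandem pairs differed likewise in the GC box, with 71.7% of 53 promoters marked in all 4 libraries and 39.2% of 194 unmarked. Their ETS core stood at 39.6 and 17.5%. The TATA box did not follow, at 11.3 and 9.28%, and the CCAAT box stood at 39.6 and 42.8%. Presence differed less by the length of the gap. A peak in at least 1 library was found at 94.0% of 151 head-to-head pairs with a gap of 50 bp or less, 91.9% of 209 with 51 to 150 bp, 86.1% of 115 with 151 to 300 bp and 88.2% of 93 with 301 to 1000 bp. Marking in all 4 libraries was found at 35.8, 35.9, 33.9 and 39.8% of the same classes.

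Summits lay inside the genes and seldom in the gap. At head-to-head pairs the 4 libraries had 651, 572, 699 and 450 peaks, and the summit of 14, 20, 14 and 8 of them (2.15, 3.50, 2.0 and 1.78%) lay in the gap, which makes up 7.78% of the bases of these regions. The lower-coordinate gene held 46.9, 46.9, 47.1 and 44.9% of summits and the higher-coordinate gene 50.5, 48.6, 49.6 and 51.3%, so the 2 sides were close to equal. The median summit lay 294, 278, 249 and 274.5 bp into the nearer gene, with quartiles of 186 and 463.5, 157 and 455.75, 185 and 403, and 200 and 406.75 bp. Even in the 93 pairs with gaps over 300 bp, where the gap makes up 20.7% of the bases, 7.41, 16.2, 9.62 and 8.97% of summits lay in it. A single peak that covered the whole gap and reached both genes was found at 1, 0, 9 and 3 head-to-head pairs. The median peak of these lists was 70, 142, 310.5 and 340 bp, so they differed in how readily a peak could cover a gap.

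**Figure D2:**
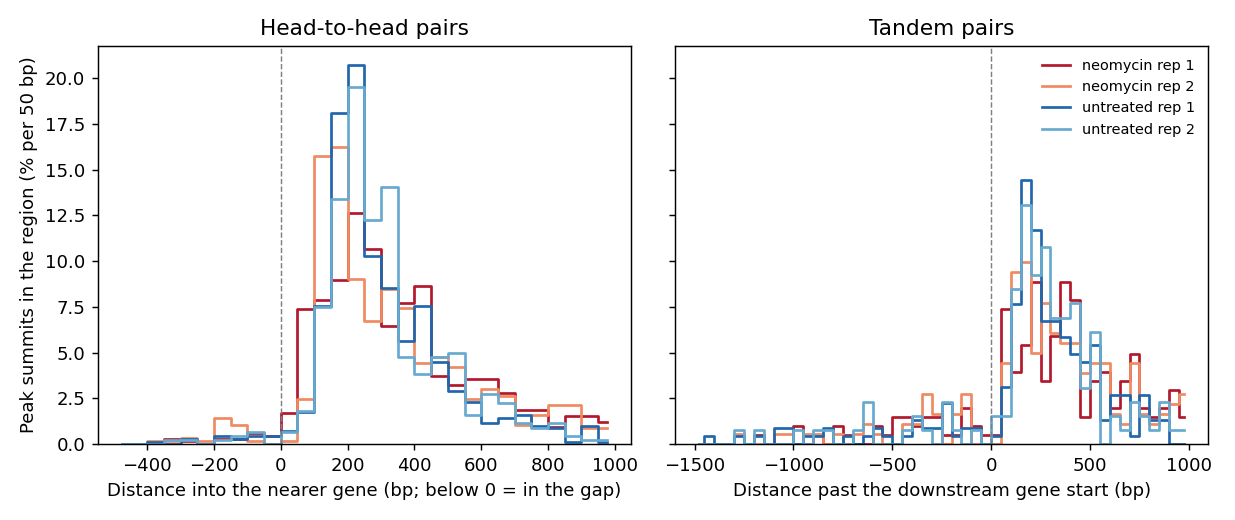
Position of peak summits at head-to-head pairs (left, distance in bp into the nearer gene, below 0 in the gap) and at tandem pairs (right, distance in bp past the start of the downstream gene), as percent of the library's summits per 50 bp (y axis), 1 line per library. At head-to-head pairs the median summit lies 249 to 294 bp into the nearer gene, and 1.78 to 3.50% of summits lie in the gap.

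At tandem pairs, with 1 start and 1 end at the gap, summits lay on the side of the start. The gene that starts at the gap held 79.7, 79.4, 80.6 and 81.2% of their summits, the end of the upstream gene 9.66, 8.47, 10.8 and 8.70%, and the gap 8.70, 7.94, 4.31 and 4.35%. The median summit lay 327, 299, 244 and 262.5 bp past the start, close to the distance at head-to-head pairs. Of marked tandem pairs, 85.5, 91.5, 87.8 and 89.0% had summits on the side of the downstream start alone.

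Tail-to-tail pairs have no annotated start of either gene at the gap. Over the 427 regions, 17 held the listed start of a gene, in 10 of them because a member gene is 1 kb long or less, and 7 of the 17 (41.2%) were marked in at least 1 library. Of the 410 without a listed start 23 (5.61%) were marked. The 2 tail-to-tail pairs marked in all 4 libraries were the histone genes H2ac21/H2ac20, with summed peak lengths of 223, 118, 347 and 260 bp, and Ubd/Olfr94, with 48, 184, 443 and 285 bp. The H2ac21 and H2ac20 genes are short enough for the region to span both whole genes. Histone genes are near-identical copies, so reads may have been split or lost between them.

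A head-to-head pair can be marked on 1 side of the gap or on both. Summits lay on both sides of the gap midpoint at 120 of 390, 100 of 375, 190 of 451 and 85 of 343 marked pairs, which is 30.8% (Wilson 26.4 to 35.5), 26.7% (22.4 to 31.4), 42.1% (37.7 to 46.7) and 24.8% (20.5 to 29.6). The lower-coordinate side alone was marked at 134, 124, 128 and 118 pairs and the higher-coordinate side alone at 136, 151, 133 and 140. Where both sides were marked, the inner summits lay a median of 740, 675, 644 and 706 bp apart, far more than the median gap. The mean share marked on both sides was 28.7 ± 2.90% (SD, n = 2) with neomycin and 33.5 ± 12.3% (SD, n = 2) without, a difference of 4.74 points (exact two-sided permutation p = 1). Untreated replicate 1, the longest list, stood above the other 3, which overlapped in their intervals. Without that library the difference was -3.94 points.

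**Figure D3:**
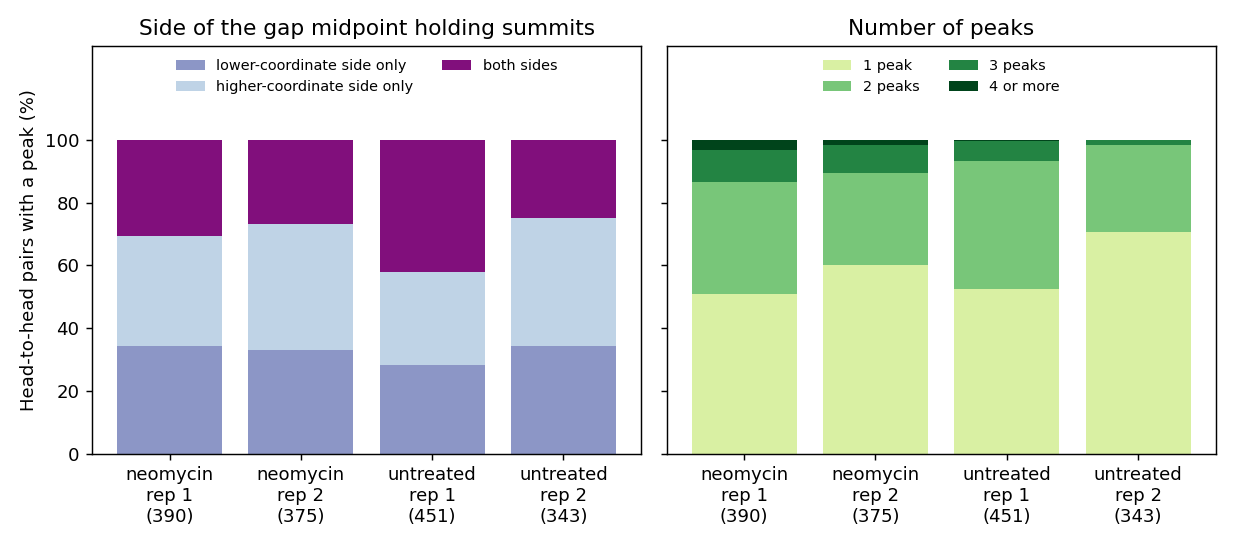
Stacked shares of the marked head-to-head pairs (y axis, percent) by the side of the gap midpoint that held summits (left) and by the number of peaks (right), 1 bar per library with the number of marked pairs in brackets. Both sides were marked at 42.1% of pairs in untreated replicate 1 and at 24.8 to 30.8% in the other 3 libraries.

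The number of peaks per marked head-to-head pair also varied more within groups than between them. The share with 2 or more peaks was 49.0, 40.0, 47.7 and 29.4% (191, 150, 215 and 101 pairs), and the most at 1 pair was 6, 5, 5 and 3. The means were 44.5 ± 6.35% with neomycin and 38.6 ± 12.9% without (SD, n = 2 each), and the exact two-sided permutation p was 0.667. Without untreated replicate 2, the smallest list, the untreated share was 3.18 points above the neomycin mean instead of 5.93 points below it. At tandem pairs the share with 2 or more peaks was lower in each library, at 27.0, 21.6, 20.6 and 8.66%.

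The marked side agreed between libraries more often than not. Among pairs with summits on 1 side alone in both libraries compared, the side was the same in 122 of 141 pairs (86.5%) for the 2 untreated libraries and in 100 of 144 (69.4%) for the 2 neomycin libraries. Across the groups it was the same in 81.8 and 79.7% for neomycin replicate 1 and in 70.4 and 70.6% for neomycin replicate 2, against untreated replicates 1 and 2. Agreement was thus lower in each comparison that involved neomycin replicate 2. Over the 4 libraries together, 330 of the 515 marked pairs had summits on each side and 185 on 1 side alone. Of the 205 pairs marked in all 4 libraries, 12 were marked on both sides in each, 34 on the same single side in each (17 on either side), 65 on opposite single sides in some libraries, and 94 on both sides in at least 1 library and never on opposite single sides.

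Polr1c/Yipf3 and Psma7/Ss18l1 were among the 12 pairs marked on both sides throughout. Polr1c, a subunit shared by RNA polymerases I and III, and Yipf3, a Golgi protein, are separated by the 34 bp printed above (chr17:46248046-46248079). Summits lay 352, 376, 233 and 326 bp into Polr1c and 363, 125, 175 and 178 bp into Yipf3. The 2 distances were close in neomycin replicate 1 and differed most in neomycin replicate 2. The summed peak length was 165, 291, 1037 and 697 bp. Psma7, an alpha subunit of the proteasome core, and Ss18l1, a subunit of a neuronal chromatin remodelling complex, are separated by 18 bp (chr2:180042465-180042482). Their summed length was 147, 355, 1503 and 1493 bp. In the 2 untreated libraries each side held 1 peak, of 566 and 582 bp over Psma7 and of 937 and 911 bp over Ss18l1, and both libraries left the gap itself outside the peaks.

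The other 4 such pairs by rank follow. Septin10/Sowahc, a cytoskeletal septin and an ankyrin repeat protein, had 253, 678, 1184 and 618 bp. Nop16/Higd2a, a nucleolar protein and a mitochondrial assembly factor, had 100, 589, 881 and 560 bp. Gtf3c4/Ddx31, a TFIIIC subunit and a nucleolar helicase, had 402, 624, 994 and 900 bp. At these 3 pairs the summed length was smaller in neomycin replicate 1 than in the other 3 libraries, and the list of that library has the shortest peaks. Sgsm2/Tsr1, a RabGAP and a ribosome maturation factor, had 269, 347, 1185 and 837 bp across a gap of 868 bp, and 1 summit of neomycin replicate 2 lay in the gap, 188 bp before Tsr1.

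At pairs marked on the same side throughout, 1 gene of the pair carried all the summits. Polk/Cert1, a translesion DNA polymerase and a ceramide transfer protein, had 96, 615, 967 and 640 bp of peaks with all summits in Cert1. Tpmt/Kdm1b, a thiopurine methyltransferase and a histone H3K4 demethylase, had 349, 417, 786 and 820 bp with all summits in Kdm1b. Tmem69/Gpbp1l1 was marked in Gpbp1l1 alone, over 48, 155, 575 and 284 bp, and Btf3l4/Txndc12 in Btf3l4 alone, over 64, 110, 207 and 417 bp. At 2 pairs the side differed by group. Drap1/AI837181 had summits in Drap1, a repressor of general transcription, in both neomycin libraries, and in AI837181 in both untreated libraries. Nup88/Rpain, a nucleoporin and an importer of replication protein A, had summits in Rpain with neomycin and in Nup88 without. With 65 of 205 pairs on opposite sides in some libraries, and 44 of 144 between the 2 neomycin libraries, 2 such pairs are a description and no difference between groups.

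Of the marked head-to-head pairs, 18 of 515 (3.50%) were marked in the 2 neomycin libraries and unmarked in the 2 untreated ones. Over all gene-end regions marked in at least 1 library the same share was 2.72%. In the reverse pattern, 19 of 515 (3.69%) were marked in the 2 untreated libraries and unmarked in the 2 neomycin ones, where the share over all marked gene-end regions was 9.14%. The neomycin count was near its background. The untreated count was under its background, and the difference was not tested. Both counts changed with the length and strength asked of a peak. With at least 200 bp of the region covered they became 0 and 134. With only peaks of a −log10 q-value of at least 10 they became 0 and 71. That threshold kept 747, 283, 6279 and 2259 peaks. It left 1 neomycin library with no marked head-to-head pair, so its neomycin count of 0 was fixed in advance. The median peak was 70, 142, 310.5 and 340 bp, so 200 bp asks more of the neomycin lists. Neither setting compares the groups on equal terms. Leaving out each library in turn, so that 1 library alone stands for its group, gave 31, 30, 83 and 23 pairs for neomycin and 74, 62, 21 and 41 for untreated cells, with the largest counts where the other group lost its longer list. Tandem pairs had 12 and 12 of 250 marked pairs in these patterns, tail-to-tail pairs 3 and 2 of 30, and unknown-strand pairs 10 and 16 of 264.

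The 18 pairs marked with neomycin alone carried short peaks. Their summed length had a median of 88 bp in replicate 1 (48 to 200) and 174 bp in replicate 2 (110 to 381), and the nearest untreated peak lay a median of 34.7 kb from the gap, with 3 pairs within 10 kb of one. In 11 of the 18 both libraries had summits on the same single side, in 4 on opposite sides, and in 3 at least 1 library was marked on both. The 19 pairs marked in untreated cells alone had a median of 438 bp (236 to 836) and 420 bp (234 to 696), with the same single side in 12, opposite sides in 1 and both sides in 6. Their nearest neomycin peak lay a median of 23.9 kb away, with 4 pairs within 10 kb.

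Wrap53/Trp53 was one of the pairs marked with neomycin alone. Trp53 encodes the p53 protein, and Wrap53, which runs the other way from a gap of 97 bp (chr11:69580251-69580347), encodes a telomerase and Cajal body factor. Neomycin replicate 1 had 2 peaks of 80 and 107 bp with summits 404 and 915 bp into Trp53, and replicate 2 had 1 peak of 243 bp with its summit 364 bp into Trp53. No peak of either neomycin library had its summit in Wrap53. The untreated libraries had no peak in the region. The peak nearest to the gap was 1.14 kb off in untreated replicate 1, just outside the window, and 24.5 kb off in replicate 2.

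Bloc1s3/Trappc6a joins subunits of a complex for lysosome-related organelles and of a vesicle tether. It had 52 and 145 bp of peak with neomycin, the summit 419 bp into Trappc6a in replicate 1 and 119 bp into Bloc1s3 in replicate 2, so the replicates marked opposite sides. Untreated peaks came no nearer than 34.0 and 33.8 kb. Ufsp2, a protease of the ubiquitin-like protein UFM1, and its neighbour 1700029J07Rik had 72 and 123 bp, also on opposite sides, 122 bp into Ufsp2 and 439 bp into 1700029J07Rik. Zfyve26/Rad51b, of which Rad51b serves homologous recombination, had 117 and 242 bp with summits 261 and 211 bp into Rad51b in both replicates. Rpgrip1l/Fto, a protein of the ciliary transition zone and an RNA demethylase, had 140 and 144 bp with summits 197 and 177 bp into Rpgrip1l. These 2 pairs had like positions in both neomycin libraries, and untreated peaks came no nearer than 124 kb for the first and 179 kb for the second.

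The other head-to-head pairs named by rank stood lower in that ranking. Bckdha/Exosc5, a subunit of branched-chain ketoacid dehydrogenase and one of the RNA exosome, had 48 and 381 bp. Nudt22/Trpt1, a nudix hydrolase and a tRNA phosphotransferase, had 68 and 224 bp on opposite sides. Rnf123/Mst1, a ubiquitin ligase and the macrophage-stimulating protein, had 59 and 110 bp, with summits in Rnf123 at 886 and 862 bp from the gap. The listed start of Rnf123 lies 1051 bp inside the gene span, so both summits were nearer to that start than to the gap. An untreated replicate 1 peak lay 1.11 kb from the gap. In replicate 1 the peak of Bckdha/Exosc5 had the shortest length in that list. Of tandem pairs, Ache/Ufsp1, acetylcholinesterase and a UFM1 protease, had 54 and 126 bp, Hyal3/Ifrd2 57 and 225 bp, and Gmip/Lpar2, of which Lpar2 is a lysophosphatidic acid receptor, 104 and 113 bp. Tail-to-tail pairs in this pattern were led by Rps21/Cables2 with 48 and 360 bp and Hrc/Ppfia3 with 58 and 223 bp.

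In untreated cells alone, G3bp2/Uso1 and Mthfd2/Mob1a ranked first. G3bp2, a stress granule protein, and Uso1, a Golgi tether, had 1 peak of 494 and 1 of 420 bp, whose summits lay 278 and 311 bp into Uso1 (gap at chr5:92137726-92137908). Mob1a, an activator of the Lats kinases of the Hippo pathway, carried the summits of its pair at 455 and 193 bp from the gap (chr6:83326012-83326033), in peaks of 478 and 530 bp. The nearest neomycin peaks were 54.5 and 94.7 kb from the gap of G3bp2/Uso1 and 23.9 and 23.5 kb from that of Mthfd2/Mob1a. In both pairs the 2 untreated libraries marked the same gene.

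The next head-to-head pairs by rank were 6 in number. Rps6kb1/Tubd1, the S6 kinase and delta tubulin, had 687 and 428 bp with summits in Rps6kb1. Lonp1/Catsperd, the mitochondrial Lon protease and a sperm cation channel subunit, had 748 and 552 bp across a gap of 7 bp. Sdha/Ccdc127, of which Sdha is the catalytic subunit of succinate dehydrogenase, had 258 and 248 bp with summits 216 and 183 bp into Sdha. Rom1/Eml3 differed from these in that its summits lay in the gap of 306 bp, 90 and 86 bp before Eml3, in peaks of 236 and 673 bp. Fbxw2/Gm34653 had 236 and 525 bp, and Smpd2/Ppil6, a neutral sphingomyelinase and a cyclophilin-like protein whose ends abut with a gap of 0 bp, had 472 and 234 bp. Of tandem pairs, Vac14/Mtss2 had 438 and 286 bp, Usp21/Ufc1, a deubiquitinase and the UFM1-conjugating enzyme, 440 and 294 bp, and 1700092M07Rik/Stx5a, a Golgi syntaxin, 593 and 430 bp. Tail-to-tail pairs in this pattern were Exosc6/Gm38523 with 452 and 1002 bp and Isyna1/Ssbp4 with 640 and 442 bp.

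**Figure D4:**
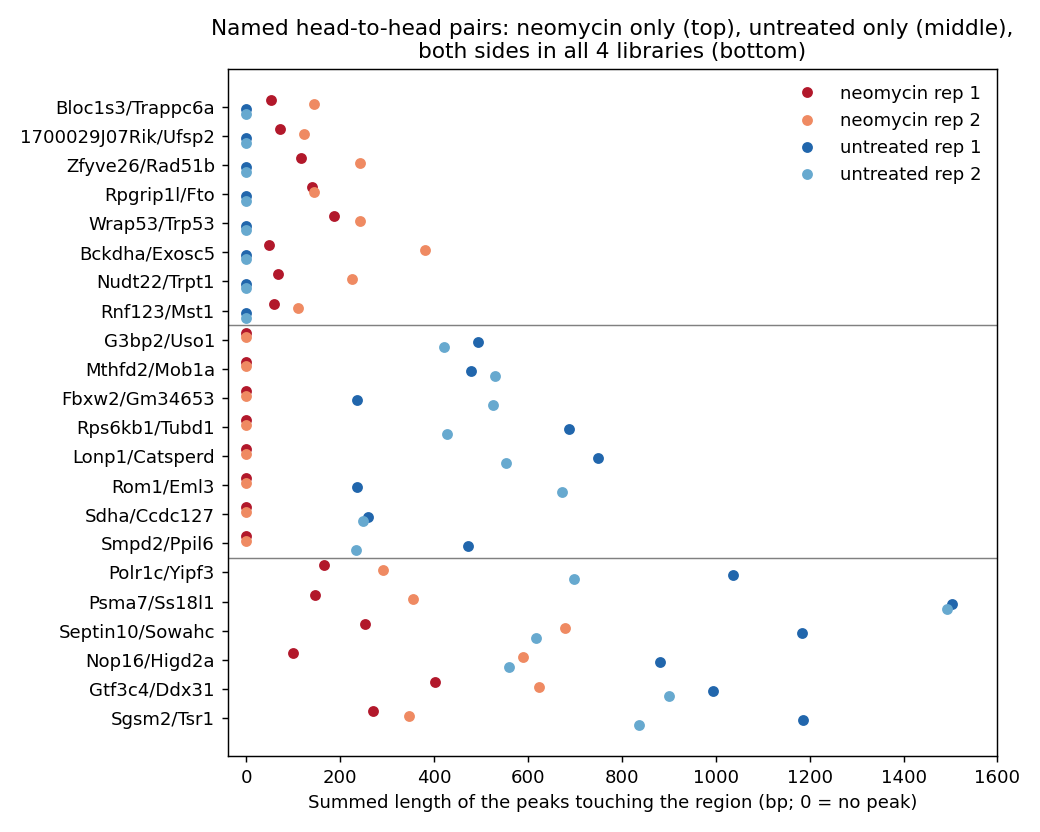
Summed length of the peaks touching the region (x axis, bp, 0 where there was no peak) for named head-to-head pairs (y axis), 1 point per library. The top 8 pairs have points above 0 with neomycin alone (48 to 381 bp), the middle 8 in untreated cells alone (234 to 748 bp), and the bottom 6, marked on both sides in all 4 libraries, range from 100 bp in neomycin replicate 1 to 1503 bp in untreated replicate 1.

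Summed peak length was compared at the 3029 gene-end regions marked in all 4 libraries, after the log2 length was centred on the median of each library. No region passed an adjusted p of 0.05 with limma and Benjamini-Hochberg adjustment (0% in either direction), 290 had an unadjusted p under 0.05 and the smallest adjusted p was 0.0636. Of the 205 head-to-head pairs 0 passed, 19 had an unadjusted p under 0.05, and the smallest adjusted p was 0.175. The median centred log2 difference, neomycin minus untreated, was 0.15 (quartiles -0.39 and 0.63) at head-to-head pairs and -0.01 over all regions, with 119 pairs above 0 and 86 below. The 2 groups did not overlap at 49 pairs (23.9%) longer with neomycin and at 35 pairs (17.1%) longer without, against 18.8 and 21.3% of all regions. Leaving out neomycin replicate 1 or replicate 2 gave 7 and 13 calls at head-to-head pairs, with 93 and 185 over all regions. In those fits the spread comes from the 2 untreated libraries alone, and the lone neomycin library is assumed to vary like them.

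**Figure D5:**
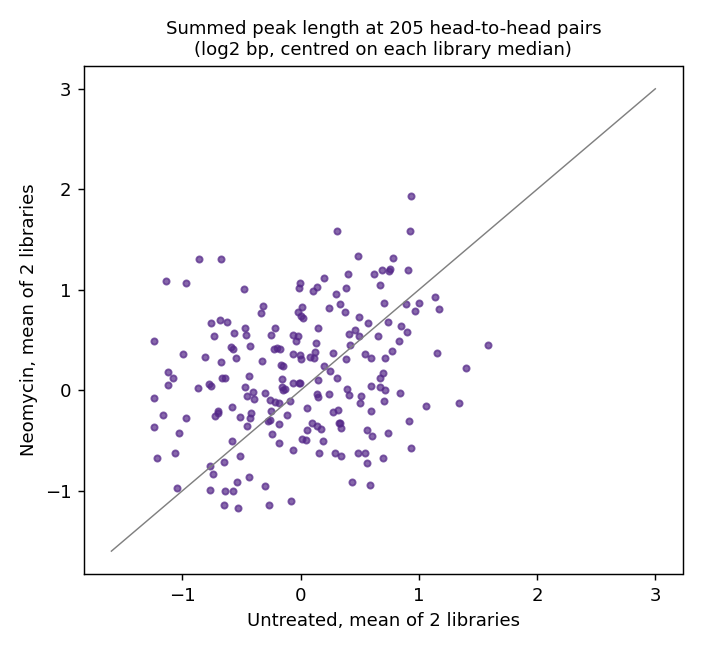
Centred log2 summed peak length at the 205 head-to-head pairs marked in all 4 libraries, the mean of the 2 untreated libraries on the x axis and of the 2 neomycin libraries on the y axis, 1 point per pair and a line of equality. Points scatter on both sides of the line, 119 above and 86 below, and none passed an adjusted p of 0.05.

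The pairs with the largest differences, none of which passed, show how raw and centred lengths part. Etfdh/4930579G24Rik, of which Etfdh hands electrons to the respiratory chain, had raw lengths of 284, 440, 188 and 274 bp and a centred log2 difference of 2.22 ± 0.62 (SE, limma adjusted p = 0.175). Ccdc189/Rnf40, of which Rnf40 ubiquitinates histone H2B, had 392, 432, 324 and 234 bp and a difference of 2.16. Fbxo44/Fbxo2, a pair of F-box proteins, had 283, 432, 187 and 347 bp and 2.04. In the other direction, Zcchc3/6820408C15Rik had 58, 130, 1400 and 399 bp (-1.53), Mau2/Sugp1, a cohesin loader and a splicing protein, 114, 110, 928 and 976 bp (-1.51), and Pcid2/Cul4a, of which Cul4a is a ubiquitin ligase scaffold, 73, 319, 1581 and 1005 bp (-1.47). At these 3 pairs the raw lengths of the groups did not overlap, while of the first 3 they overlapped at Fbxo44/Fbxo2 alone. At Zcchc3/6820408C15Rik untreated replicate 1 was far longer than replicate 2.

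Gene lists with members at head-to-head pairs were described by counts, beside the 18 and 19 of 515 marked pairs in the 2 patterns. Over pairs of any orientation, 43 of 1059 marked pairs (4.06%) were marked with neomycin alone and 49 (4.63%) in untreated cells alone. DNA repair and replication genes were at 27 head-to-head pairs, of which 20, 22, 21 and 14 were marked, 26 in at least 1 library and 10 in all 4. Of these pairs 4 were marked with neomycin alone and 0 in untreated cells alone. They were Wrap53/Trp53 and Zfyve26/Rad51b (above), Rad51c/Tex14, of which Rad51c is a recombination protein, with 48 and 153 bp and summits 645 and 628 bp into Rad51c, and Rlbp1/Fanci, of which Fanci belongs to the Fanconi anaemia pathway, with 76 and 112 bp. Rlbp1/Fanci was chosen after its values were seen. The count of 0 for untreated cells depends on which genes the list holds. It does not hold Aptx, a DNA end processor, whose head-to-head pair Aptx/Dnaja1 was marked in untreated cells alone (below, under chaperones). Over pairs of any orientation the list had 58 pairs, 43 of them marked in at least 1 library. Of these, 5 were marked with neomycin alone, among them the tandem pair Pold1/Nr1h2 (95 and 110 bp). The 1 marked in untreated cells alone was the tandem pair Marveld2/Rad17 (634 and 582 bp). These 5 neomycin pairs had summed lengths of 48 to 243 bp. In neomycin replicate 1 each was under 200 bp, so none of them could keep the pattern when 200 bp of coverage was required.

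Mitochondrial ribosome, import and respiratory chain genes were at 45 head-to-head pairs, with 31, 30, 40 and 25 marked. In all, 43 were marked in at least 1 library, 13 in all 4, 1 with neomycin alone (Mitd1/Mrpl30, 61 and 194 bp) and 3 in untreated cells alone. The 3 were Sdha/Ccdc127 (above), Mrpl50/Zfp189 with 339 and 295 bp and Ndufa4/Phf14 with 438 and 234 bp. Aminoacyl-tRNA synthetase genes had 6 head-to-head pairs with 6, 4, 5 and 5 marked and 4 in all 4 libraries, proteasome genes 7 pairs with 6, 5, 7 and 4 marked and 4 in all 4, and genes of RNA polymerases and Mediator 12 pairs with 10, 7, 9 and 6 marked and 4 in all 4. None of these 3 lists had a head-to-head pair marked in 1 group alone. At tandem pairs Vars2/Gtf2h4, a mitochondrial valyl-tRNA synthetase and a TFIIH subunit, had 71 and 129 bp with neomycin alone.

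Cytosolic ribosomal protein genes had 10 head-to-head pairs, with 6, 4, 8 and 3 marked and 0 in all 4 libraries. The single one marked in untreated cells alone was Rps6kb1/Tubd1, which entered by its symbol and encodes a kinase. Over all orientations this list had 35 pairs, 24 of them marked in at least 1 library. Of other orientations, 3 pairs were marked with neomycin alone, the tail-to-tail pairs Rps21/Cables2 (above) and 2310039H08Rik/Rpl7l1 (48 and 127 bp) and Micos13/Rpl36 (79 and 245 bp). Rpl36/Lonp1 (218 and 422 bp) was marked in untreated cells alone. The last 2 are of unknown strand and share Rpl36. Histone genes had 10 head-to-head pairs, with 6, 2, 3 and 2 marked, 8 in at least 1 library and 0 in all 4. Over all orientations 26 histone pairs were marked in at least 1 library, 3 of them with neomycin alone. The 3 were H2ac8/H2bc8 (100 and 169 bp) and the tandem pairs H1f0/Gcat (157 and 316 bp) and H3c13/H2bc18 (54 and 536 bp), the last chosen after its values were seen. The tandem pair H2bc6/H1f4 was marked in untreated cells alone (480 and 276 bp). Chaperone genes had 10 head-to-head pairs with 6, 5, 7 and 6 marked, of which Aptx/Dnaja1, a DNA end processor and an Hsp40, was marked in untreated cells alone (422 and 415 bp). Zinc finger genes had 14 pairs with 10, 11, 12 and 8 marked. Type IV collagen genes had 0 pairs by this rule, and markers of supporting and hair cells had 1 pair each, neither head-to-head nor marked in any library.

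Several pairs from a list of known bidirectional promoters or related pairs were looked up by name. Atm/Npat, the DNA damage kinase and a histone gene coactivator that share a gap of 60 bp, was marked in all 4 libraries with 231, 318, 345 and 281 bp. Its summits lay in Npat in each library, and neomycin replicate 2 also had one in Atm. Gart/Son, a purine synthesis enzyme and a splicing factor, was marked in all 4 with 238, 139, 238 and 235 bp in 4, 1, 1 and 1 peaks. Brca1/Nbr1, a repair protein and an autophagy receptor, had a peak of 305 bp in neomycin replicate 2 alone, with its summit 888 bp into Nbr1. Sirt3/Psmd13, a mitochondrial deacetylase and a proteasome subunit, had 109 bp in neomycin replicate 1 and 288 bp in untreated replicate 1, and Mrps12/Sars2, both of mitochondrial translation, 109 bp in neomycin replicate 1 alone. Of unknown strand were Mcm4/Prkdc, a replicative helicase subunit and a DNA end-joining kinase, with 203 and 436 bp in the first replicate of each group, and Ier3/Flot1, an early response gene and flotillin, with 56 and 225 bp with neomycin alone. At Brca1/Nbr1, Sirt3/Psmd13, Mrps12/Sars2 and Mcm4/Prkdc the 2 neomycin libraries differed from each other in whether a peak was called. The 2 untreated libraries differed in the same way at Sirt3/Psmd13 and Mcm4/Prkdc.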

How the data were processed

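The 4 H3K4me3 libraries were analysed as peak lists; the 2 input libraries were not used here. Groups and replicate numbers came from the labels. The submitters' processing notes name mm10, CASAVA 1.4, Bowtie2, MACS2 and deepTools; the sources used here do not give their roles and parameters. Each deposited peak has, per the file headers, a start, end, length in bp and summit position, a pileup signal at the summit, a fold enrichment (ratio over background) and a −log10 p-value and −log10 q-value. The authors' −log10 q-value was used to rank peaks within a list and, in 1 alternative, as a threshold; the deposited pileup signal, fold enrichment and −log10 p-value were not used.

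Gene positions came from a RefSeq table of GRCm38.p6, and strands and promoters from a RefSeq promoter table that matched 17274 of 21631 genes by identifier. Gaps were taken between neighbouring gene-covered stretches. A pair was named when it was on a list of known bidirectional promoters or related pairs; when it ranked high by −log10 q percentile among pairs marked in 1 group alone (8 head-to-head, 3 tandem and 2 tail-to-tail per direction), on both sides (6) or the same side (4) in all 4 libraries, or tail-to-tail in all 4; when its sides switched between groups; when its length changed most (3 per direction); or when it was among the first 3 of a gene list marked in 1 group alone. Sequences were to be those of the lower-coordinate gene; where its listed start lay over 50 bp from the gap, the partner's is printed. Members, lists and pairs were chosen with earlier results of these data known.

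Lengths were tested with limma 3.58.1 in R 4.3.3, without a replicate block, on log2 summed lengths centred per library, after the code was tested on simulated data. Shares were tested by exact permutation over libraries (Python 3.11.15), with 95% Wilson intervals from statsmodels 0.14.6. The labels do not say that equal numbers pair libraries, and the correlation of same-numbered deviations was -0.03. Alternatives changed the gap limit, flank, overlap, q-value threshold, list length, summit rule and centring, left out each library, or kept pairs with both listed starts within 100 bp of the facing ends, the last chosen after seeing the data.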

Additional observations from a re-analysis of the deposited data

How the results depend on the processing

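Depth is unknown for these lists, so a region without a peak shows only that none was called. With 2 libraries a group, no permutation test could pass 0.05. The share of head-to-head pairs with a peak, untreated minus neomycin, ran from -6.95 to 12.1 points on leaving out 1 library (reversed without untreated replicate 1). The share marked on both sides ran from -3.94 (reversed without untreated replicate 1) to 13.4 points, and the share with 2 or more peaks from -15.0 to 3.18 points (reversed without untreated replicate 2). Pairs marked with neomycin alone numbered 23 to 83 on leaving out 1 library, where fewer libraries had to be marked or unmarked, 0 with peaks of a −log10 q-value of at least 10, and 0 with 200 bp covered. Pairs marked in untreated cells alone numbered 21 to 74 on leaving out 1 library, 30 with 500 bp of each gene, 71 with the q-value threshold and 134 with 200 bp covered. That threshold kept 747, 283, 6279 and 2259 peaks, and the shortest peak of 3 lists is under 200 bp. It also left 1 neomycin library with no marked head-to-head pair, so the neomycin count of 0 under it was fixed in advance. Cutting the lists to equal size gave 25 and 23 such pairs, and requiring both listed starts within 100 bp of the facing ends, added after seeing the data, 12 and 14 of 367. The cause of the other changes was not tested.

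Calls of a changed length at head-to-head pairs numbered 7 without neomycin replicate 1, 13 without neomycin replicate 2 and 42 without centring, where the median over all regions was -1.59 and 816 regions were called. With the replicate number as a block there were 0 calls at head-to-head pairs and 6 over all regions. The excess of head-to-head over tandem and tail-to-tail pairs kept its sign under each setting run, from 12.4 points (q-value threshold) to 52.1. Length tests with the q-value threshold were not run, since no region kept a peak in all 4 libraries, nor were sides and peak numbers, since 1 neomycin library kept no marked head-to-head pair.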
